A study of Mus musculus with 3 samples.

Results

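The 10 genes described here make, bind, break down or respond to retinoic acid, and they were taken from the 55421 named genes of the table by their symbols. They are the retinoic acid receptors *Rara*, *Rarb* and *Rarg*, the retinoid X receptors *Rxra* and *Rxrb*, the binding proteins *Crabp1* and *Crabp2*, and the enzymes *Aldh1a2*, *Dhrs3* and *Cyp26a1*. RNA-seq was performed on 3 libraries (replicates 1, 2 and 3) of ALSCs, a mouse pluripotent stem cell type that was established from the epiblast of gastrulas at embryonic day 6.5. The embryos came from ICR females mated with GOF/GFP males, which carry a fluorescent reporter of *Oct4*, and the cells were kept in a defined medium with Activin A and LIF. All 3 libraries carry the same labels, so they hold 1 condition without a control, and no effect of either factor on these genes can be read from them. The labels number the libraries and do not say whether each came from its own cell line or culture, so the spread between them may be partly technical.

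Retinoic acid is made from vitamin A in 2 oxidation steps, from retinol to retinaldehyde and from retinaldehyde to retinoic acid. It enters the nucleus and binds RAR proteins, which sit on DNA as dimers with RXR proteins and switch from repression to activation of their target genes when the ligand is bound. In the early mouse embryo it patterns the body axis and promotes differentiation, and pluripotent cells in culture leave the pluripotent state when it is added.

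The receptors recognise pairs of 6-base sites in direct repeat, and several genes of the pathway, *Rarb*, *Cyp26a1* and *Dhrs3* among them, are known to respond to retinoic acid themselves. The 300 bases around RefSeq start sites (GRCm38.p6, 250 bases before and 50 after) were therefore searched on both strands for AGGTCA or AGTTCA or GGGTCA or GGTTCA followed by another of these sites, with 2 or 5 bases between them. RefSeq gave 17 windows for 9 of the 10 genes, all except *Crabp2*. A match was found in 2 of the 17 windows, those of *Rarb* and *Cyp26a1*, both with 5 bases between the sites. Over all 32851 windows, 120 held a match (0.365%), and 32 (0.0974%) held one with 5 bases between the sites. The matches are shown in capitals because one of these genes was detected in every library and the other was not, as described next. The *Rarb* match lies at chr14:16575513-16575529 on the strand of the gene, 53 to 37 bases before the start site, and is shown with its flanks (chr14:16575507-16575535, minus strand). In the GENCODE annotation it falls into the 5′ UTR of 2 of the 7 *Rarb* transcripts, which start further upstream than the RefSeq one. The *Cyp26a1* match lies at chr19:37697776-37697792, 32 to 16 bases before the start site. It reads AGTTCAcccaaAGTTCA on the strand opposite to the gene, and it is shown within the bases upstream of the first annotated exon (chr19:37697558-37697797, plus strand).
Rarb: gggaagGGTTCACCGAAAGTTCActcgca
Cyp26a1: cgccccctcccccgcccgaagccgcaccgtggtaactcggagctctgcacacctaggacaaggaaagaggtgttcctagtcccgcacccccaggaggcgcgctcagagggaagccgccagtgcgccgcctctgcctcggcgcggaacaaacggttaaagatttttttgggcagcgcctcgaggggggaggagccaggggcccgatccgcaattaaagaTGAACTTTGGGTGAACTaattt
With the sites AGGTCA and AGTTCA alone, the match of *Cyp26a1* was kept and that of *Rarb* was not. The 17 windows of the 9 genes, some of which overlap, had a median of 62.3% G and C against 52.7% over all windows. They ranged from 45% to 83%, and held a median of 17 CG dinucleotides against 7. A match in these letters is a description of the sequence and does not show that a receptor binds there. None of 23 other retinoid pathway genes and none of 7 other retinoic acid target genes with a RefSeq window had a match.

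The libraries held 18088505, 18724038 and 18037342 counts on named genes. Levels are given as FPKM, the count scaled to gene length in kilobases and to the library's total, and 1 count on a gene of 1 kb was worth 0.0534 to 0.0554 FPKM. A gene was called detected when it had more than 3 counts in every library. Below that, 3 counts served as the upper limit for a gene without any count, which covers counting error only. The 6 epiblast markers were all at 1 FPKM or more, with a summed level of 1222 to 1240 FPKM. The lowest of them were *Fgf5* and *Otx2*, with means of 3.89 and 5.08 FPKM. Of 5 fibroblast markers, 1 was detected (sum of 0.166 to 0.313 FPKM, *Dcn* and *Lum* at 0 counts), and of 5 mesoderm markers, 2 were detected (sum of 1.52 to 1.94 FPKM). Of 5 neural markers, 2 were detected (sum of 8.65 to 9.84 FPKM, most of it from *Sox1*, with *Olig2* at 0 counts). Of 5 endoderm markers, 3 were detected (sum of 1.78 to 2.94 FPKM, most of it from *Foxa2*). Of 4 trophoblast markers, 2 were detected, the keratins *Krt8* and *Krt18* (sum of 53.6 to 63.7 FPKM, nearly all of it from these keratins). The trophoblast markers *Cdx2* and *Elf5* received 0, 1 and 0 counts and 0, 0 and 1 counts. The part of such cells in the levels of the retinoic acid genes was not tested, and in bulk RNA a small number of cells with a high level cannot be told apart from many cells with a low one.

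RNA-seq analysis revealed that ALSCs held the RNA of 4 of the 5 receptors and of both binding proteins, each at 7.55 FPKM or more in every library. Among the 10 genes, the enzymes that lower retinoic acid or its precursor, *Cyp26a1* and *Dhrs3*, were at low levels, between 1.10 and 2.29 FPKM. *Aldh1a2*, which catalyses the last step of synthesis, and *Rarb* were at or near the limit of detection. In all, 8 of the 10 genes reached 1 FPKM in all libraries, as did 45.7% of 21926 protein-coding genes.

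**Figure D1:**
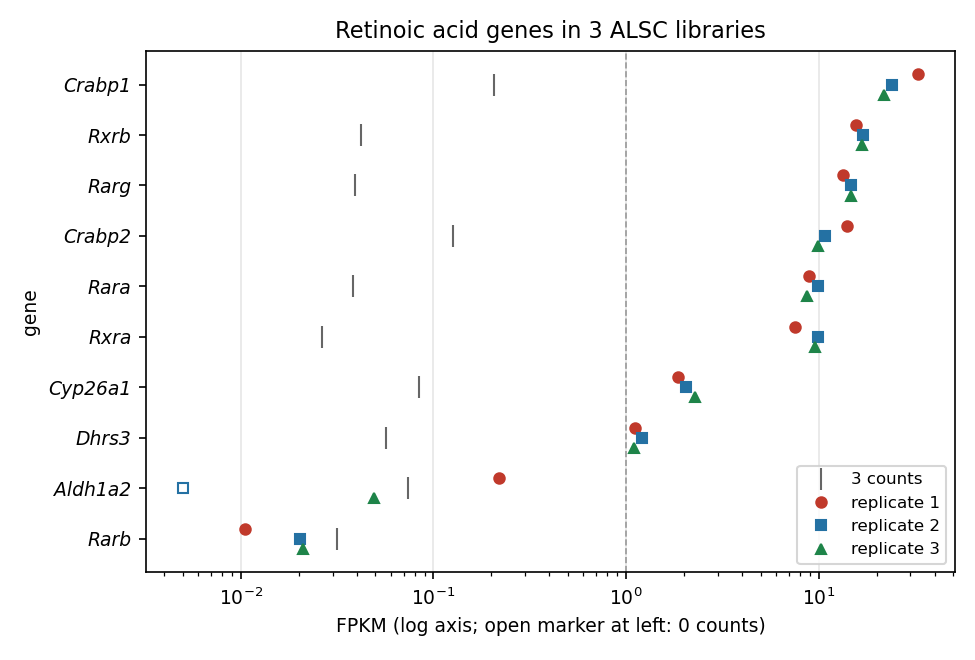
FPKM (log axis) of the 10 retinoic acid genes in the 3 ALSC libraries, ordered by mean, with the level that 3 counts give as a vertical tick and 1 FPKM as a dashed line. The upper 8 genes lie right of the dashed line in every library, while *Aldh1a2* and *Rarb* scatter around or below their ticks.

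Among the retinoic acid receptors, *Rarg* was the highest. Its level was 13.5, 14.7 and 14.7 FPKM in replicates 1, 2 and 3 (14.3 ± 0.710 FPKM, SD, n = 3). *Rarg* (ENSMUSG00000001288, chr15:102234938-102257517, minus strand) encodes RARγ, a receptor found in the early embryo and later in skin and cartilage. The 3 values lay within a narrow band, and replicate 1 was the lowest. *Rara* (ENSMUSG00000037992, chr11:98927818-98974942, plus strand) encodes RARα, which is made in most tissues. It was at 8.92, 9.90 and 8.71 FPKM in the 3 libraries (9.18 ± 0.634 FPKM, SD, n = 3). *Rarg* was above *Rara* in each library without overlap, and the mean log2 ratio of *Rarg* to *Rara* was 0.64 ± 0.10 (SD, n = 3).

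*Rarb* (ENSMUSG00000017491, chr14:16430839-16819156, minus strand) encodes RARβ and is one of the best-known genes induced by retinoic acid. It received 1, 2 and 2 counts, or 0.0105, 0.0203 and 0.0211 FPKM (0.0173 ± 0.00589 FPKM, SD, n = 3). All libraries were under the 0.0316 FPKM that 3 counts give, so *Rarb* was not detectable at this depth. Of its 5265 exonic bases, 1793 are shared with *Top2b* and 227 with *Gm48162*, both on the opposite strand. *Top2b* received 3112, 3873 and 3807 counts and *Gm48162* none. How reads in the shared bases were assigned is not given in the sources used here. Taken over the 3472 bases that *Rarb* does not share with *Top2b*, its counts would give a mean of 0.0262 FPKM against a limit of 0.0479 FPKM. The 50-base words of its longest coding transcript were looked up on both strands of other genes' transcripts. Only 45.9% of them occur in none, against 99.5 to 100% for the other 9 genes. Words in the bases shared with *Top2b* count as shared in this search, so this share and the exon overlap may describe the same bases.

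The RXR proteins pair with RAR and with many other nuclear receptors. *Rxrb* (ENSMUSG00000039656, chr17:34031812-34038399, plus strand), the broadly expressed RXRβ, was at 15.7, 17.0 and 16.9 FPKM (16.5 ± 0.748 FPKM, SD, n = 3). *Rxra* (ENSMUSG00000015846, chr2:27676440-27762957, plus strand) encodes RXRα, the main partner of RAR in the embryo, and was at 7.55, 9.95 and 9.63 FPKM (9.04 ± 1.30 FPKM, SD, n = 3). Its value in replicate 1 lay below both others. The length of *Rxra* in the table, 6303 bases, is above the 5462 bases of its merged exons in GENCODE, so its FPKM would be higher with the latter. *Rxrb* exceeded *Rxra* in each library, by a mean log2 ratio of 0.88 ± 0.15 (SD, n = 3). The remaining member of the family, *Rxrg*, was detected at 2.31, 1.74 and 2.32 FPKM.

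Within each family the order of the genes was the same in every library. *Rarg* made up 60.1, 59.7 and 62.7% of the summed RAR level, *Rara* 39.8, 40.2 and 37.2%, and *Rarb* 0.0469, 0.0824 and 0.0900%. *Rxrb* made up 61.4, 59.3 and 58.6% of the summed RXR level, *Rxra* 29.6, 34.6 and 33.4%, and *Rxrg* 9.05, 6.07 and 8.03%. The summed RXR level of 27.7 ± 1.88 FPKM (SD, n = 3) was 1.14, 1.17 and 1.23 times the summed RAR level of 23.5 ± 1.12 FPKM (SD, n = 3). These sums are RNA per length and say nothing of the amounts of protein.

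**Figure D2:**
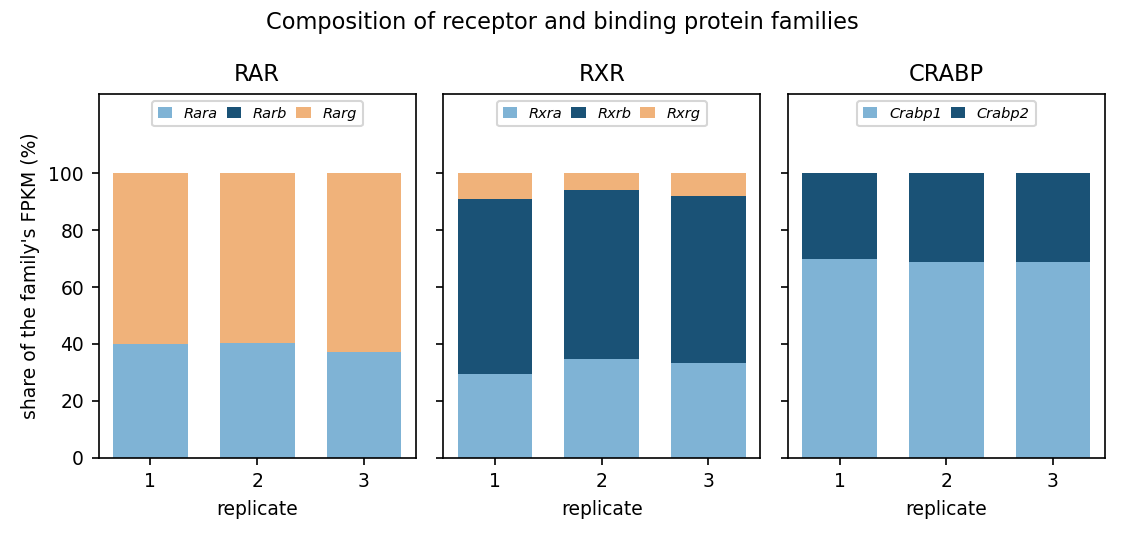
Share of each gene in the summed FPKM of its family (percent, stacked bars from 0 to 100) for the RAR, RXR and CRABP families in replicates 1, 2 and 3. *Rarg*, *Rxrb* and *Crabp1* hold the largest share in every library, and the share of *Rarb* is too small to be seen.

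Both cellular retinoic acid binding proteins were present. *Crabp1* (ENSMUSG00000032291, chr9:54764748-54773110, plus strand) encodes a cytoplasmic protein that binds retinoic acid and is linked to its breakdown, and it was the highest of the 10 genes. It was at 32.8, 24.0 and 21.8 FPKM (26.2 ± 5.84 FPKM, SD, n = 3). *Crabp2* (ENSMUSG00000004885, chr3:87948666-87953376, plus strand), whose protein carries retinoic acid to the receptors in the nucleus, was at 14.1, 10.8 and 9.90 FPKM (11.6 ± 2.18 FPKM, SD, n = 3). Replicate 1 was the highest library for both genes. Their proportion changed little, with *Crabp1* at 70.0, 68.9 and 68.8% of the sum, and the mean log2 ratio of *Crabp2* to *Crabp1* was -1.17 ± 0.05 (SD, n = 3).

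*Aldh1a2* (ENSMUSG00000013584, chr9:71215789-71296243, plus strand) encodes the retinaldehyde dehydrogenase that makes most of the retinoic acid in the early embryo, where it is found in mesoderm. It received 9, 0 and 2 counts, or 0.220, 0 and 0.0490 FPKM, against a limit of 0.0735 FPKM. Only replicate 1 was above the limit. Of the mesoderm markers, *T* and *Tbx6* were detected, and both were below 1 FPKM in every library.

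*Dhrs3* (ENSMUSG00000066026, chr4:144892827-144928209, plus strand) encodes a reductase that turns retinaldehyde back into retinol. It was at 1.11, 1.20 and 1.10 FPKM (1.14 ± 0.0570 FPKM, SD, n = 3) and was the least abundant of the detected genes. *Cyp26a1* (ENSMUSG00000024987, chr19:37697798-37701536, plus strand), the P450 enzyme that clears retinoic acid in the early embryo, was at 1.87, 2.05 and 2.29 FPKM (2.07 ± 0.213 FPKM, SD, n = 3). The counts behind them were 59, 66 and 58 for *Dhrs3* and 67, 76 and 82 for *Cyp26a1*. The 2 genes with a sequence match thus had counts of 67 or more and of 2 or less.

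Placed in order of mean level, the genes ran *Crabp1*, *Rxrb*, *Rarg*, *Crabp2*, *Rara*, *Rxra*, *Cyp26a1*, *Dhrs3*, *Aldh1a2* and *Rarb*. The ranges of neighbours did not overlap from *Crabp1* to *Rarg*, nor from *Rxra* to *Aldh1a2*. The neighbours *Rarg* and *Crabp2*, *Crabp2* and *Rara*, *Rara* and *Rxra*, and *Aldh1a2* and *Rarb* overlapped in range. These ranges alone do not settle their order. *Rara* was above *Rxra* in 1 of the 3 libraries, while *Crabp2* was above *Rara* in all 3. The top of the order depended on the gene length used. With the longest coding transcript in place of the length in the authors' table, *Crabp1* stayed at 26.2 FPKM (21.8 to 32.8) and *Rxrb* came to between 23.7 and 25.8 FPKM, so that their ranges overlapped.

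Among the 11125 genes at 1 FPKM or more in every library, *Crabp1* stood at percentile 80.0 of mean level and *Rxrb* at percentile 69.7. *Rarg* followed at percentile 65.6, *Crabp2* at 60.3, *Rara* at 53.5 and *Rxra* at 53.2. *Dhrs3* was at percentile 0.234, and *Cyp26a1* was the next lowest of the 8 genes. The receptors and binding proteins were thus above the median of the expressed genes, and both enzymes were below it.

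**Figure D3:**
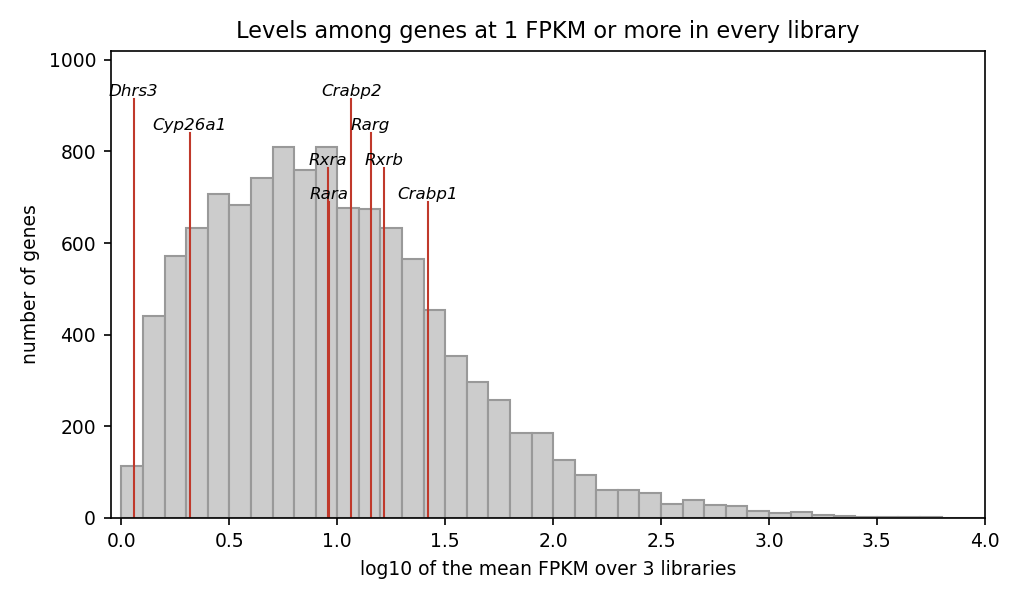
Number of genes (vertical axis) by log10 of the mean FPKM over the 3 libraries, for the 11125 genes at 1 FPKM or more in every library, with the 8 retinoic acid genes among them as red lines whose heights only separate the labels. *Dhrs3* and *Cyp26a1* stand at the low end, and the receptors and binding proteins at the middle or above it.

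To ask how reproducible these levels were, the counts of each gene were tested against the library sizes (TMM-scaled) with a chi-square test of homogeneity, with Benjamini-Hochberg adjustment over all 16944 genes that had at least 10 counts. This test sets the spread between libraries against counting error only. Counts varied for 4 of the 9 genes tested, *Crabp1*, *Crabp2*, *Rxra* and *Aldh1a2*, while 47.2% of all genes tested did so. The share among the retinoic acid genes was therefore near that of all genes. In each of the 4 genes replicate 1 stood apart from replicates 2 and 3. The log2 ratio of replicate 1 to the mean of the others was 0.59 for *Crabp1* (adjusted p = 2.38e-10) and 0.51 for *Crabp2* (adjusted p = 1.04e-05). It was -0.30 for *Rxra* (adjusted p = 3.36e-06). For *Aldh1a2*, with 11 counts in all, the adjusted p was 0.00397, and an exact multinomial test chosen after the counts had been seen gave an unadjusted p of 0.00062. The test did not call *Rarg* (adjusted p = 0.643), *Rxrb* (adjusted p = 0.752), *Rara* (adjusted p = 0.161), *Cyp26a1* (adjusted p = 0.652) or *Dhrs3* (adjusted p = 0.931), and *Rarb* had too few counts to be tested.

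The differences of replicate 1 moved with gene length. Among the genes that averaged 100 counts or more, the median log2 ratio of replicate 1 to the others fell from 0.39 in the group of the shortest genes to -0.53 in the group of the longest. *Crabp1* and *Crabp2*, with 802 and 1322 bases, are the shortest of the 10 genes, and *Rxra*, with 6303 bases, is the longest. When the trends on length and GC content were included in the expected counts, 2 of the 9 genes varied, *Crabp1* (adjusted p = 0.00865, log2 ratio of 0.27) and *Aldh1a2* (adjusted p = 0.0123), beside 37.9% of all genes. The adjusted p was then 0.147 for *Crabp2* and 0.307 for *Rxra*. Without replicate 1, none of the 8 genes with enough counts varied by the adjusted chi-square test, 1 (*Rara*) had an unadjusted p under 0.05, and 8.11% of all genes varied. *Aldh1a2* had too few counts left for that test. What set replicate 1 apart was not tested.

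**Figure D4:**
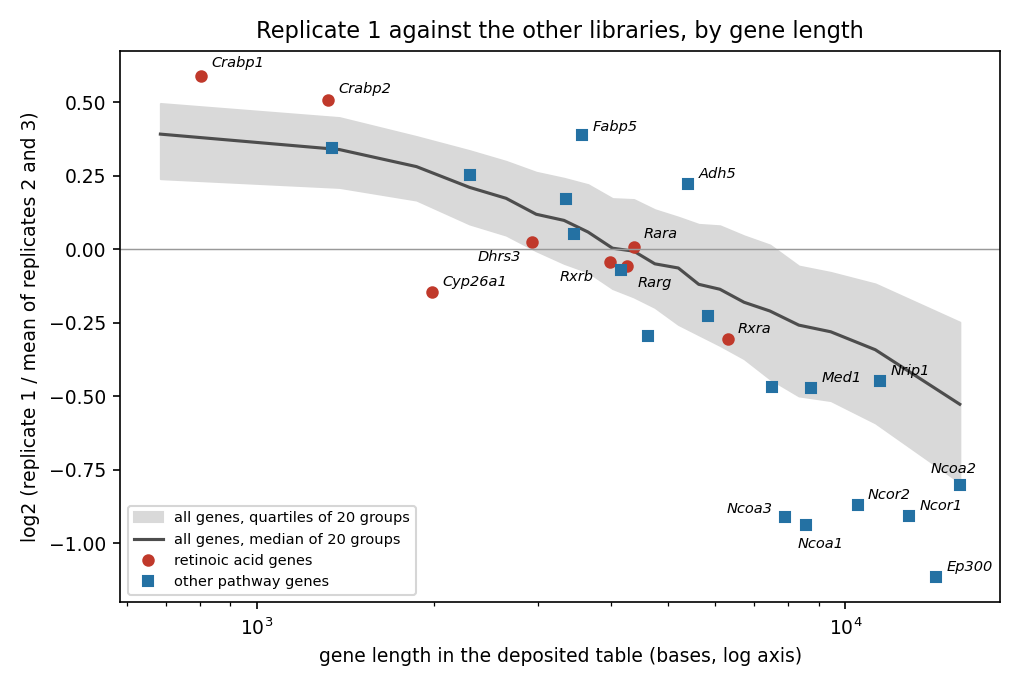
Log2 ratio of replicate 1 to the mean of replicates 2 and 3 (vertical axis, TMM-scaled) against gene length in bases (log axis) for the retinoic acid genes (red circles) and other pathway genes (blue squares, 1 not drawn) with a mean of at least 50 counts. The line and band are the median and quartiles of all genes in 20 groups of length, falling from 0.39 to -0.53, and *Crabp1* and *Crabp2* lie above the band at its short end.

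The 32 other genes of the retinoid pathway gave the surroundings of these levels. Of these, 20 were detected and 17 reached 1 FPKM in every library, beside 60.3% and 45.7% of all protein-coding genes. *Ttr* and *Bco1* had 0 counts in all libraries. Counts of 14 of the 22 genes tested varied between libraries, beside the 47.2% of all genes, and none of 21 did without replicate 1 by the adjusted test (2 had an unadjusted p under 0.05).

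For the uptake of retinol, *Rbp4*, the secreted retinol carrier, was at 5.72, 4.33 and 5.12 FPKM, and *Stra6*, its membrane receptor, at 0.579, 0.797 and 0.628 FPKM. *Lrat*, which stores retinol as ester, received 0, 3 and 5 counts. The first oxidation step was represented by *Rdh10*, the main retinol dehydrogenase of the embryo, at 2.45 ± 0.135 FPKM (SD, n = 3). *Rdh11*, a retinal reductase, was at 36.5 ± 0.338 FPKM (SD, n = 3), and *Adh5*, an alcohol dehydrogenase of broad function, at 37.4 ± 2.32 FPKM (SD, n = 3). With the longest coding transcript as length, the mean would be 38.7 FPKM for *Rdh11* and 126 FPKM for *Adh5*.

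The other genes for the last step of synthesis were as low as *Aldh1a2*. *Aldh1a1* received 0, 3 and 1 counts, and *Aldh1a3* received 1, 0 and 3, none of them above the limit of 3 counts. In all, 3 of 3 retinaldehyde dehydrogenase genes were below 1 FPKM in every library, whereas 45.7% of all protein-coding genes reached it in every library. The other enzymes of breakdown were low as well, with 0, 6 and 3 counts for *Cyp26b1* and 0, 3 and 1 for *Cyp26c1*, which left *Cyp26a1* as the only detected gene of that family. *Fabp5*, a fatty acid binding protein that also binds retinoic acid, was the highest gene of the pathway list, at 92.1, 72.3 and 75.3 FPKM. With its longest coding transcript as length, its mean would be 289 FPKM. Of the 50-base words of that transcript, 78.9% occur in no other gene's transcripts on either strand.

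All 8 genes for nuclear receptor cofactors were detected and 7 were at 1 FPKM or more, beside 60.3% and 45.7% of all protein-coding genes. *Ncor1*, a corepressor that unliganded RAR recruits, was at 9.45, 19.0 and 18.3 FPKM. The counts of all 8 varied, beside 47.2% of all genes tested, each with its lowest value in replicate 1, and their median log2 ratio of replicate 1 to the others was -0.89, against -0.0028 over all genes tested. These genes are long, from 7895 to 15642 bases. With the trends on length and GC content included, the median was -0.43 and 7 of the 8 varied, beside 37.9% of all genes, with *Nrip1* as the exception (adjusted p = 0.317). Among 8 other partners of RXR, 3 reached 1 FPKM in every library, beside 45.7% of all protein-coding genes. *Nr1h2*, a sterol receptor, was the highest of them at 20.7, 19.5 and 19.1 FPKM.

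**Figure D5:**
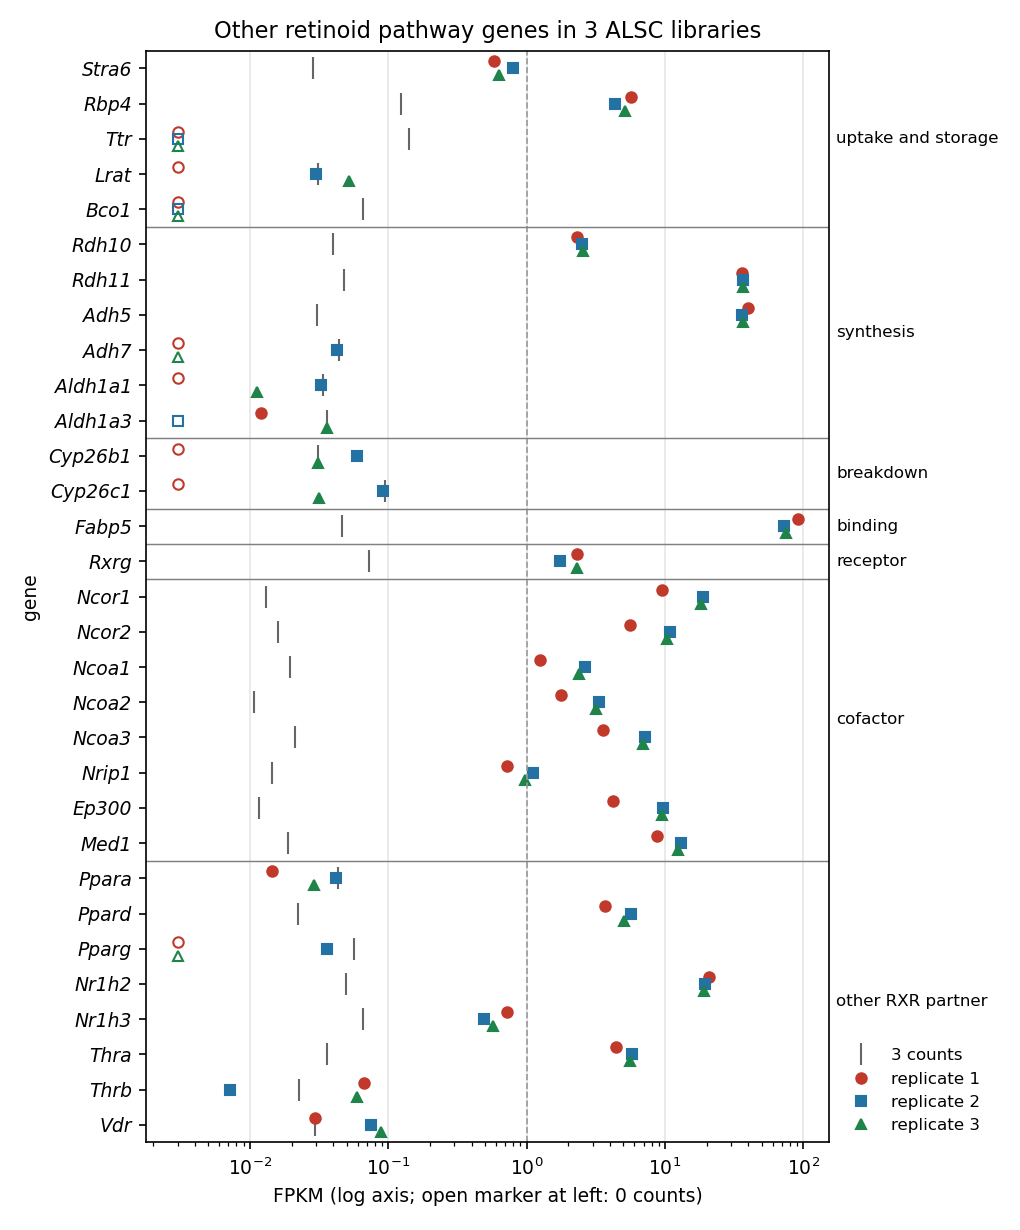
FPKM (log axis) of 31 of the 32 other retinoid pathway genes in the 3 libraries, grouped by role, with the level of 3 counts as a tick, 1 FPKM as a dashed line, and open markers at the left for 0 counts. The cofactors lie lowest in replicate 1, and *Aldh1a1*, *Aldh1a3*, *Cyp26b1* and *Cyp26c1* lie far to the left of the dashed line.

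Finally, 14 genes known to respond to retinoic acid in other cells were examined. Of these, 4 were detected and 2 reached 1 FPKM in every library, beside 60.3% and 45.7% of all protein-coding genes. *Meis1*, a homeobox gene, was at 3.14, 4.12 and 3.96 FPKM, and *Tgm2*, a transglutaminase, at 1.58 ± 0.171 FPKM (SD, n = 3). *Hoxb2*, *Cdx1*, *Stra8* and *Nr2f2* had 0 counts in every library, and *Hoxb1* received 5, 0 and 0 counts. Only a part of the 50-base words of *Hoxb2* (42.7%) occurs in no other gene's transcripts on either strand. Any genes that overlap *Hoxb2* are counted among these others. *Rarb* was under its limit too, whereas *Cyp26a1* and *Dhrs3*, which are also known targets, were detected in all 3 libraries. Without libraries given retinoic acid or an inhibitor of its receptors, these levels do not tell how much of the expression depends on the ligand.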

How the data were processed

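Raw read counts and gene lengths were deposited by the authors in 1 table, from polyA RNA reads mapped to GRCm38 (HISAT2 2.0.5 in the submitters' processing notes). The counting program and its strand setting are not given in the sources used here. The table's 3 other count columns, headed AF_SCs, match no sample of the series and were not used. Rows without a gene name (317 of 55738, 0.165 to 0.182% of counts) were left out. FPKM was computed from these counts, the table's lengths and the library totals. For 9 of the 10 genes that length equals the merged exons of GENCODE M21. TMM factors (0.968, 1.02 and 1.01) came from edgeR 4.0.16 in R 4.3.3. Python 3.11.15 with SciPy 1.17.1 gave the chi-square test, which was tested on simulated data. Trends were medians in 20 groups over length, then GC content. Alternatives covered library size (DESeq2 1.42.0 among them), length, thresholds, filters and each replicate left out. The 10 genes, the lists and the rule for naming were chosen with earlier results of these data known. For the lists, the rule was to name retinoid enzymes, binding proteins and receptors, the highest or lowest detected gene, and the most variable. Those named at 0 counts were chosen after their values were seen. Some genes of the lists, including some that met this rule, are counted but not reported by name here.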

Additional observations from a re-analysis of the deposited data

How the results depend on the processing

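No paired analysis was possible because all libraries share 1 condition. The median level of the 10 genes, 9.11 FPKM, became 25.3 as TPM and 11.7 FPKM with the longest coding transcript as length, which also moved the log2 ratio of *Rarg* to *Rara* from 0.64 to 0.80, of *Rxrb* to *Rxra* from 0.88 to 1.12, and of *Crabp2* to *Crabp1* from -1.17 to -0.66. No ratio changed sign. Of the 14 target genes, 1 reached 2 FPKM. With the trends on length and GC content in the expected counts, 2 of the 9 genes tested varied in place of 4. Leaving out 1 replicate gave 0 to 3 varying genes among the 10, 0 to 16 among the 32 pathway genes (14 with all libraries) and 1302 to 7490 among all genes (8003 with all libraries), each time lowest without replicate 1. With the sites AGGTCA and AGTTCA alone, 1 promoter window matched in place of 2. The number of the 10 genes at 1 FPKM or more was 8 without any of the replicates. Depth limits *Rarb* and *Aldh1a2*, and annotated length limits comparisons between genes.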

Other observations

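The search for direct repeats with 5 bases between the sites found a match near the start sites of 31 gene symbols, of which 18 were in the table. Of the 14 protein-coding genes among them, 2 reached 1 FPKM in every library, beside 45.7% of all protein-coding genes. These were *Cyp26a1* and *Blvrb*, a biliverdin reductase, at 19.1 ± 3.41 FPKM (SD, n = 3), which was chosen after its values had been seen. No test was made on these genes.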
